A study of Mus musculus with 5 samples.

Results

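The genes described here encode the 3 chains of complement C1q (C1qa, C1qb, C1qc) and proteins by which phagocytes take up dying cells, a process called efferocytosis. The latter are the receptors Axl and Mertk with their ligands Gas6 and Pros1, the phosphatidylserine receptors Timd4 and Stab1, and the secreted bridging protein Mfge8. These 10 genes were chosen by symbol from the 27179 genes of the count table, and all 10 were found. RNA had been sequenced from purified Langerhans cells, phagocytes that reside in the epidermis, from skin of C57BL/6 mice at 1 week of age, with 5000 cells behind each library. One group was wild type (2 biological replicates, written WT) and the other carried a conditional knockout labelled Suz12 cKO (3 biological replicates, written cKO). No agent or treatment is named for either group, and the driver of the Cre recombinase is not given in the sources used here. The comparison asks which transcripts differ when the gene for Suz12 is deleted, a protein required by Polycomb repressive complex 2 (PRC2). PRC2 methylates histone H3 at lysine 27 and is found mostly at CpG-rich promoters.

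C1q is the recognition unit that starts the classical complement pathway. Each functional molecule needs all of its A, B and C chains, which are encoded by neighbouring genes, and macrophages and some dendritic cells are its main sources. Besides binding antibody complexes, C1q coats dying cells and helps phagocytes clear them. Dying cells expose phosphatidylserine on their surface. Timd4 and Stab1 bind this lipid directly, whereas Mfge8 links it to integrins on the phagocyte, and Gas6 and Pros1 link it to the receptor tyrosine kinases Tyro3, Axl and Mertk (the TAM receptors). In Langerhans cells Axl is known as a receptor induced during their differentiation under TGF-beta.

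The C1q genes lie side by side on chromosome 4 (136880126 to 136898844, GRCm38.p6, which has the coordinates of mm10), all on the minus strand, in the order C1qb, C1qc, C1qa. The whole cluster spans 18719 bases, with 3600 bases between C1qb and C1qc and 2979 bases between C1qc and C1qa. The sequences upstream of C1qb and C1qc are shown because these 2 genes were lower in every cKO library. The window for C1qb is chr4:136886201-136886450 and that for C1qc is chr4:136893066-136893164, shortened to end before the gene start in GENCODE vM21. In these sequences from RefSeq, capitals mark GAGGAA, the core bound by the myeloid factor PU.1 (TTCCTC on the other strand), and TGCTGA, the half-site of MAF factors.
C1qb: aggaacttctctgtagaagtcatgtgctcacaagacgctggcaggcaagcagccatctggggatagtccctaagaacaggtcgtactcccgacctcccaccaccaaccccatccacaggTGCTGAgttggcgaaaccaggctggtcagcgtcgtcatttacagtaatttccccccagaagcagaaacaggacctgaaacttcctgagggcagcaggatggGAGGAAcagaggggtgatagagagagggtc
C1qc: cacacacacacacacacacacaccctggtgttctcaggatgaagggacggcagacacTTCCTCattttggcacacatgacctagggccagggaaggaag
In the 250 bases upstream of the RefSeq start, both C1qb and C1qc held 1 match to GAGGAA on either strand, and so did 23.3% of all 32851 upstream windows of this length. TGCTGA occurred once before C1qb and not before C1qc, against 16.1% of all windows. No entry was matched for C1qa. Such matches are letters in a window and do not show binding.

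Mfge8 and Mertk are shown next because Mfge8 had the highest level of the 10 genes and Mertk had no count in any library. Their windows are chr7:79149061-79149310 on the minus strand and chr2:128698665-128698914 on the plus strand, and capitals mark each CG dinucleotide.
Mfge8: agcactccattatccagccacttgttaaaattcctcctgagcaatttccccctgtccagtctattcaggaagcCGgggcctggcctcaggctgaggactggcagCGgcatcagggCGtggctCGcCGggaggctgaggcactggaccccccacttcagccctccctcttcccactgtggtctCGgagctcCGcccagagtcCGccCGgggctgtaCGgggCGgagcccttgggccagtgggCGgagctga
Mertk: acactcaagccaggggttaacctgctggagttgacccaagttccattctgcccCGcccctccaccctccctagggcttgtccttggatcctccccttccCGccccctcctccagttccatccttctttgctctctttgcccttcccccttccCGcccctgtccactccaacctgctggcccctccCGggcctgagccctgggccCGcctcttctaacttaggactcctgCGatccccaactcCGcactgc
The Mfge8 window held 12 CG dinucleotides and the Mertk window 7, against a median of 6 over all windows. Across the full 250-base windows of the 9 members matched, the number ran from 2 before C1qc to 15 before Pros1, which encodes the vitamin K-dependent protein S. In the same build the other members lie apart from one another: Mfge8 on chromosome 7 from 79133768 to 79149060, Gas6 on chromosome 8 from 13465374 to 13494535, Pros1 on chromosome 16 from 62854307 to 62929346, Axl on chromosome 7 from 25756500 to 25788924, Mertk on chromosome 2 from 128698915 to 128803162, Timd4 on chromosome 11 from 46810786 to 46844333 and Stab1 on chromosome 14 from 31139017 to 31168651. Counts cover the exons of each gene as 1 value.

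The libraries held 12090062 to 25725900 counts assigned to genes, and all 13 Langerhans cell markers had counts in each library. The defining marker Cd207, which encodes langerin, ranged from 6639 to 14597 CPM, the usual depth-scaled count, here on TMM-normalised library sizes. The source label reads alveolar macrophage, whereas titles and tissue name Langerhans cells of the skin. Suz12 itself had 88 and 39 counts in WT (4.66 and 2.30 CPM) and 0, 0 and 7 in cKO replicates 1 to 3. The targeted gene thus lay lower in all cKO libraries, as did 10.2% of tested genes. In the edgeR fit described below its log2 fold change (cKO minus WT) was -4.11 with a standard error of 2.87 (adjusted p = 0.999). Counts this low do not by themselves show the deletion. A gene with no count could still have lain at up to 0.106 CPM in the deepest library or 0.258 CPM in the shallowest, the level of 3 counts. These limits and the intervals below cover counting error only, because the reads were amplified and carry no molecular identifiers.

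Among the C1q genes, C1qb and C1qc were lower in each cKO library than in either WT library, while C1qa was not. Of all tested genes 10.2% lay lower in this way. C1qb, the B chain, was measured at 185 and 117 CPM in WT replicates 1 and 2, and at 53.4, 106 and 63.0 CPM in cKO replicates 1 to 3. The groups did not overlap, but cKO replicate 2 came close to WT replicate 2, where the exact Poisson 95% intervals were 103 to 110 and 112 to 122 CPM. C1qc, the C chain, was measured at 321 and 215 CPM in WT and at 13.5, 169 and 148 CPM in cKO. Again the groups did not overlap, and cKO replicate 1 stood far below the other libraries, with 215 counts against 1719 or more elsewhere. C1qa, the A chain, was measured at 197 and 155 CPM in WT and at 66.2, 274 and 146 CPM in cKO. Its highest and its lowest values were both in cKO libraries, so the groups overlapped completely.

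The WT mean was 2.03 times the cKO mean for C1qb (151 ± 47.8 CPM, SD, n = 2, against 74.2 ± 28.2 CPM, SD, n = 3). For C1qc the WT mean was 2.44 times the cKO mean (268 ± 74.5 CPM, SD, n = 2, against 110 ± 84.3 CPM, SD, n = 3). Neither difference passed the test over all genes. In the edgeR fit C1qb had a log2 fold change (cKO minus WT) of -1.02 with a standard error of 0.47 (adjusted p = 0.968). That of C1qc was -1.29 with a standard error of 0.90 (edgeR adjusted p = 0.999), and it was -0.74 without cKO replicate 1. For C1qa the value was -0.12 with a standard error of 0.59 (edgeR adjusted p = 0.999), and its sign turned without WT replicate 1 (0.07) or without cKO replicate 1 (0.28). The design text calls the libraries biological replicates without naming animals, so p-values describe the spread from library to library, which may in part be technical. The samples carry 2 styles of title, with 1 WT library per style. Within the styles C1qb in cKO was at 0.432 and 0.538 times and C1qc at 0.284 and 0.685 times the WT level. As the groups did not overlap for either gene, ratios under 1 were fixed in advance and do not test the styles. What the styles stand for is not given in the sources used here.

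**Figure D1:**
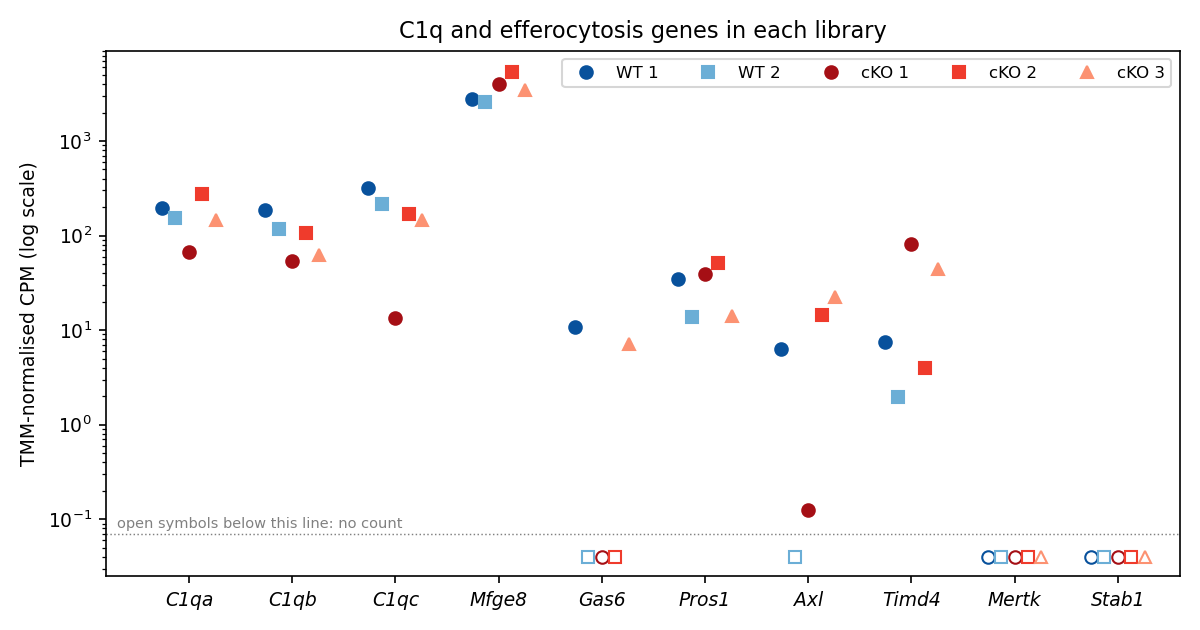
TMM-normalised CPM on a log axis for each of the 10 genes, with 1 symbol per library (blue for WT, red for cKO) and open symbols under the dotted line for libraries without a count. C1qb and C1qc lie lower in all 3 cKO libraries, Mfge8 lies higher in all 3, and Mertk and Stab1 have no count in any library.

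The 3 chains did not keep a fixed ratio. Because their exon lengths are nearly equal (1082, 1062 and 1054 bases for C1qa, C1qb and C1qc), their shares of the summed C1q counts can be read almost as shares of transcripts. C1qa made up 28.0% of the C1q counts in WT replicate 1 (Wilson 95% interval 27.2 to 28.8%) and 31.8% in WT replicate 2 (30.8 to 32.8%). In cKO replicates 1 to 3 its share was 49.7% (47.6 to 51.9%), 49.8% (49.1 to 50.6%) and 40.9% (39.4 to 42.4%). Thus C1qa, which did not separate the groups by its level, held a larger share of C1q transcripts in every cKO library than in either WT library. A share also rises when the other chains fall. Per kb of exon the ratio of C1qa to C1qb overlapped, at 1.04 and 1.30 in WT and 1.22, 2.53 and 2.27 in cKO. The ratio of C1qa to C1qc did not, at 0.597 and 0.701 in WT and 4.79, 1.58 and 0.961 in cKO. The C1qc share was 45.7% and 44.2% in WT, and 10.1%, 30.8% and 41.4% in cKO. In both WT libraries C1qc was the most abundant chain, and in cKO replicates 1 and 2 it was C1qa. The C1qb share was 26.3% and 24.0% in WT, and 40.2%, 19.4% and 17.7% in cKO, with values on both sides of WT. No test is given for these shares, because they were looked at after the values of the chains were known.

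**Figure D2:**
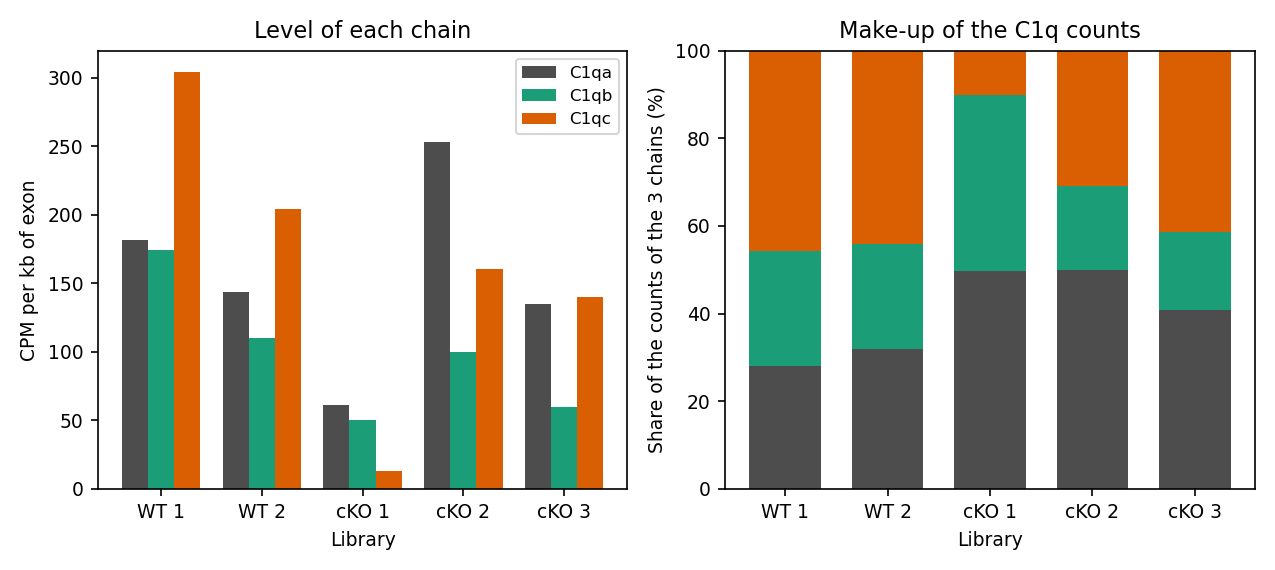
Left, CPM per kb of exon for the 3 C1q chains in each library (bars start at 0); right, each chain's share of the summed C1q counts in percent. The C1qa share is 28.0% and 31.8% in the WT libraries and 40.9% to 49.8% in the cKO libraries, and the C1qc bar is shortest in cKO replicate 1.

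Agreement of the chains across libraries was measured as the root mean square difference between 2 profiles of log2(CPM + 1), each centred on its own mean, so that 0 means parallel profiles. C1qa and C1qb differed by 0.51, C1qa and C1qc by 1.05, and C1qb and C1qc by 1.13 on the log2 scale over the 5 libraries. By this measure C1qb ranked 489 and C1qc 4081 among the 9987 other tested genes in nearness to C1qa, and C1qc ranked 4777 in nearness to C1qb. Seen from C1qc, whose profile has the deepest dip, C1qa ranked 552 and C1qb 714 in nearness. Most of the disagreement that involves C1qc came from cKO replicate 1. Without that library C1qb and C1qc differed by 0.20, and C1qc ranked 68 in nearness to C1qb. Without it C1qa and C1qc differed by 0.53, down from 1.05. C1qa and C1qb also differed by 0.53 there, and C1qb then ranked 1924 in nearness to C1qa instead of 489. The summed level of the 3 chains was 702 and 488 CPM in WT and 133, 549 and 356 CPM in cKO, so the sum overlapped between the groups.

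The tested gene nearest to the mean profile of the 3 chains, among 4645 genes that averaged 20 CPM or more, was Irf8, a transcription factor of the interferon regulatory factor family. Irf8 was measured at 135 and 93.6 CPM in WT and at 25.1, 115 and 75.9 CPM in cKO, and its profile differed from the C1q mean by 0.10. The next 4 genes lay at 0.22 to 0.24. They were Sars, which encodes the seryl-tRNA synthetase, Phf23, Txndc15 and Nosip. All 5 were lowest in cKO replicate 1, as each C1q chain was. With 5 libraries and 4645 genes these are descriptions of likeness, and no test was made of them. The genes nearest to Axl were Golph3l (0.57), the mitochondrial ribosomal protein gene Mrpl39 (0.87) and the phospholipid scramblase gene Plscr1 (0.87).

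**Figure D3:**
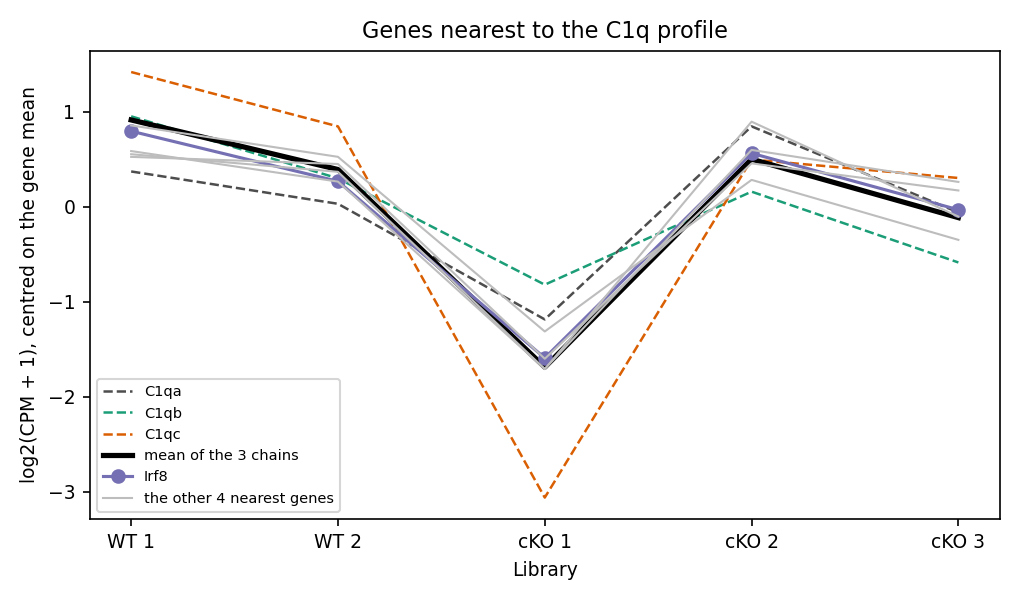
Centred log2(CPM + 1) in each library for the 3 C1q chains (dashed), their mean (black), Irf8 (purple) and the other 4 genes nearest to that mean (grey). All lines dip in cKO replicate 1, most deeply for C1qc, and the Irf8 line differs from the C1q mean by a root mean square of 0.10.

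Dermal macrophages are another source of C1q in skin, and 16 of their markers were examined. Their summed level was 569 and 494 CPM in WT and 449, 416 and 313 CPM in cKO, without overlap. When each of the 16 markers was left out in turn, the sums overlapped for 2, Ms4a7 and Cd209b. Without Ms4a7 the sums were 441 and 391.8 CPM in WT against 449, 406 and 313 CPM in cKO. Without Selenop they were further apart, 382 and 264 CPM in WT against 95.6, 151 and 184 CPM in cKO. This check was added after the values were seen. Of 7 tested markers 5 lay lower in cKO and 2 higher, and edgeR called none. The groups did not overlap for 3, Mrc1, Pf4 and Ms4a7, all lower in cKO, as were 10.2% of tested genes. Mrc1 was measured at 48.1 and 28.6 CPM in WT and at 16.7, 0 and 16.1 CPM in cKO. Pf4 was measured at 54.9 and 56.9 CPM in WT and at 51.6, 37.7 and 47.4 CPM in cKO. Selenop, the most abundant, was measured at 186 and 229.7 CPM in WT and at 353, 264 and 129 CPM in cKO, and Ccl8 had counts mainly in cKO replicates 1 (17.6 CPM) and 3 (43.96 CPM). The largest fitted difference among the lower ones, picked after the values were seen, was for the membrane protein gene Ms4a7, with 128 and 102 CPM in WT and 0.38, 9.59 and 0.26 CPM in cKO (edgeR adjusted p = 0.968). Folr2, Lyve1, Cd209f and Ccl24 of the same list had no count in any library. Of 10 monocyte markers 5 had no count. The summed level of the 10 was 1.85 and 4.30 CPM in WT and 9.64, 16.2 and 7.47 CPM in cKO, low throughout and higher in cKO without overlap. In bulk libraries, fewer cells of a type and less RNA per cell cannot be told apart, and the part of macrophage RNA in the C1q difference was not tested.

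Mfge8 was the most abundant of the 10 genes in every library and lay higher in all cKO libraries. It encodes a milk fat globule protein that bridges phosphatidylserine to integrins. It was measured at 2811 and 2553 CPM in WT and at 3961, 5316 and 3456 CPM in cKO, with no overlap. Of all tested genes 8.87% lay higher in this way. The cKO mean was 1.58 times the WT mean (4244 ± 962 CPM, SD, n = 3, against 2682 ± 183 CPM, SD, n = 2). With a log2 fold change of 0.66 and a standard error of 0.29, it did not pass over all genes (edgeR unadjusted p = 0.0550, adjusted p = 0.968). Per kb of exon its mean level over all libraries exceeded that of 99.3% of the tested genes. Its integrin partners were less abundant than Mfge8, all with overlapping groups. Itgav ranged from 1.36 to 20.5 CPM, Itgb5 from 0 to 42.7 CPM and Itgb3 from 0 to 6.44 CPM. Itgb5 was at 0 in cKO replicate 1 alone. Within the 2 styles of title Mfge8 in cKO was 1.65 and 1.35 times the WT level, a direction fixed in advance because its groups did not overlap.

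The TAM ligands were less abundant. Pros1 was measured at 34.5 and 13.9 CPM in WT and at 39.3, 51.0 and 14.1 CPM in cKO, where cKO replicate 3 was as low as WT replicate 2. Its groups overlapped, and its log2 fold change was 0.53 ± 0.94 (SE; edgeR adjusted p = 0.999). Gas6, the ligand bound by all TAM receptors, had 202 counts in WT replicate 1 (10.7 CPM) and 83 in cKO replicate 3 (7.13 CPM), and no count in the other 3 libraries. It was thus present in 1 library of each group. Its fitted log2 fold change of -1.17 had a standard error of 3.76 (edgeR adjusted p = 0.999), and the sign turned without WT replicate 1. Exons of Gas6 share 34 bases with Tmem255b on the opposite strand, and the use of strand in counting is not given in the sources used here. Fibroblast markers, 6 of 8 with counts, summed to 21.2 and 109 CPM in WT and 3.82, 46.8 and 207 CPM in cKO. The 2 libraries with Gas6 counts had the second lowest and the highest of these sums, 21.2 and 207 CPM, and the part of fibroblast RNA in Gas6 was not tested.

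Of the TAM receptors only Axl had counts. It was measured at 6.30 and 0 CPM in WT and at 0.125, 14.6 and 22.2 CPM in cKO, from 119, 0, 2, 411 and 259 counts. Axl was therefore absent or nearly so in 1 library of each group, and highest in cKO replicates 2 and 3. The log2 fold change was 1.96 ± 3.14 (SE; edgeR adjusted p = 0.999). Within the shorter style of title cKO was 1.17 times WT, and within the longer one WT had no count and cKO 22.2 CPM. Mertk, the main efferocytosis receptor of many macrophages, had no count in any of the 5 libraries, which allows up to 0.106 to 0.258 CPM, and neither had Tyro3. Stab1, a scavenger receptor of macrophages and sinusoidal endothelium, also had no count anywhere. No fold is given for these 3 genes.

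Timd4, the phosphatidylserine receptor TIM-4 of resident macrophages, was high in 2 of the 3 cKO libraries. It was measured at 7.57 and 1.95 CPM in WT and at 81.0, 3.96 and 44.6 CPM in cKO. The cKO replicate 2 value lay between the WT values, so the groups overlapped although the cKO mean was 9.08 times the WT mean. The log2 fold change was 3.18 ± 1.52 (SE; edgeR adjusted p = 0.968), and it was 4.47 without WT replicate 1 and 2.35 without cKO replicate 1. Within the 2 styles of title the mean of cKO was 5.61 and 22.9 times WT. In the shorter style the cKO libraries, at 81.0 and 3.96 CPM, lay on both sides of WT replicate 1 at 7.57 CPM. The longer style holds 1 library per group. The library with the highest Timd4, cKO replicate 1, was the one with the lowest level of each C1q chain and nearly no Axl. The related receptor Havcr2 (TIM-3) ranged from 197 to 459 CPM, with overlapping groups.

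Per kb of exon, the order of the mean levels in WT was Mfge8 (1262 CPM per kb), C1qc (254), C1qa (163), C1qb (142), Pros1 (7.39), Timd4 (2.19), Gas6 (2.06) and Axl (0.619). C1qa and C1qb overlapped between the WT libraries, as did Timd4, Gas6 and Axl. In cKO the order was Mfge8 (1996 CPM per kb), C1qa (150), C1qc (104), C1qb (69.9), Timd4 (19.9), Pros1 (10.6), Axl (2.42) and Gas6 (0.916). There the chains overlapped with one another, and so did neighbours among Timd4, Pros1, Axl and Gas6.

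Over the 8 members with enough counts, edgeR called 0, against 0% of the 9988 tested genes. None had an unadjusted p under 0.05 in edgeR, against 4.15% of tested genes (2.1% higher and 2.05% lower in cKO), and DESeq2 called 0 of 8, against 1.91%. The groups did not overlap for 1 member with higher values in cKO (8.87% of tested genes) and for 2 with lower values (10.2%), 3 in all against 19.0%. The median log2 fold change of the 8 was 0.20, against 0.06 over all tested genes. By fitted value 4 lay higher (52.5% of tested genes) and 4 lower (47.5%). Axl and Gas6 reached 10 CPM in some library and were under 1 CPM in another, as did 36.9% of tested genes.

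**Figure D4:**
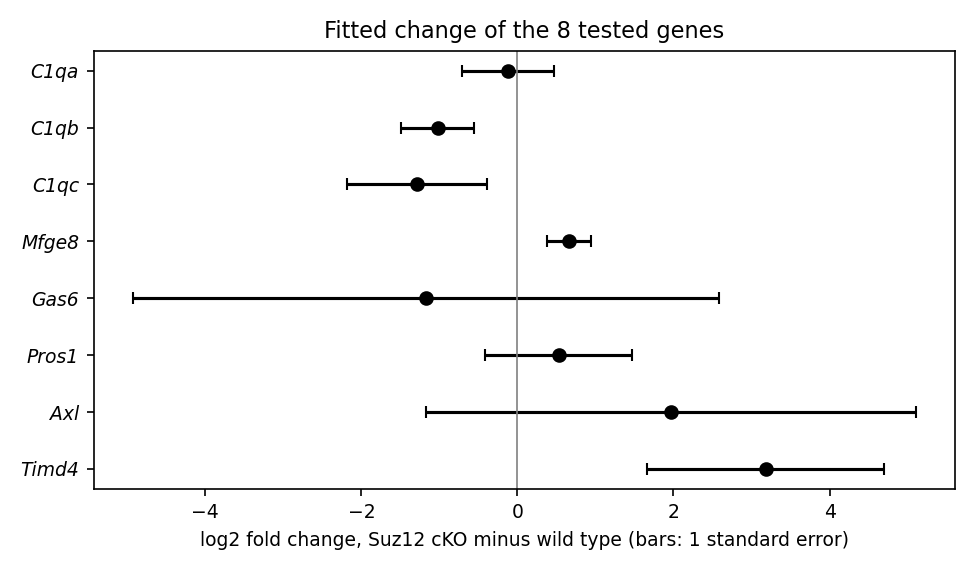
Fitted log2 fold change, cKO minus WT, with bars of 1 standard error, for the 8 members with enough counts. C1qb (-1.02), C1qc (-1.29), Mfge8 (0.66) and Timd4 (3.18) lie more than 1 standard error from 0, and none of the 8 passed the test over all genes.

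Other genes of these pathways were taken from 7 lists, in which edgeR called no gene. Of 26 other complement components 18 had no count in any library, among them C1ra, C1rb, C1s1 and C1s2, which encode the proteases that associate with C1q, and C4b. Of 5 tested components 3 lay higher and 2 lower (median 0.33). Cfp, which encodes properdin, a stabiliser of the alternative pathway, was measured at 384 and 375 CPM in WT and at 114, 205 and 243 CPM in cKO. Its log2 fold change was -1.02 ± 0.38 (SE; edgeR unadjusted p = 0.0337, adjusted p = 0.968). C2 had 155 and 34 counts in WT. No cKO library had a count (edgeR adjusted p = 0.968). C3, the central component, was at 0 to 3.44 CPM.

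Among 13 tested complement receptors and regulators, 9 lay higher and 4 lower (median 0.59). Calr, which encodes calreticulin, a partner of C1q on cell surfaces, was measured at 191 and 141 CPM in WT and at 206, 187 and 173 CPM in cKO. The integrin chain Itgb2, part of complement receptors 3 and 4, ranged from 36.2 to 212 CPM. Both sets of values overlapped between the groups. The membrane regulator Cd59a reached 9.45 CPM in cKO replicate 1 and 10.1 CPM in cKO replicate 2, and had no count in the other 3 libraries. Cd93, once described as a C1q receptor, had no count in any library.

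Of 17 tested efferocytosis receptors and bridging genes, 11 lay higher and 6 lower (median 0.22). The scavenger receptor gene Cd36 had the smallest p of these lists. It was measured at 1.16 and 3.24 CPM in WT and at 29.2, 54.9 and 53.2 CPM in cKO, and the groups were far apart. The log2 fold change was 4.37 ± 1.10 (SE; edgeR unadjusted p = 0.00557, adjusted p = 0.968). Msr1, another scavenger receptor gene, reached 16.6 CPM in cKO replicate 2 and 24.0 CPM in cKO replicate 3, and had no count in the other 3 libraries. The lipid receptor genes Trem2 (0 to 7.30 CPM) and Lrp1 (0 to 18.7 CPM) were low, with overlapping groups.

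The 21 tested genes of the engulfment and phagosome machinery had 7 higher and 14 lower (median -0.15). Atg5, needed for the lipidation of LC3, was measured at 104 and 74.8 CPM in WT and at 25.1, 2.55 and 19.0 CPM in cKO (edgeR adjusted p = 0.968). The early endosome gene Rab5a went the other way, at 35.4 and 70.0 CPM in WT and 137, 82.7 and 156 CPM in cKO (edgeR adjusted p = 0.968). For both genes the groups did not overlap, but they were named for the smallest p of their list. Of the 21 tested genes, 2 lay higher and 1 lower in cKO without overlap, against 8.87% and 10.2% of all tested genes. Of 14 tested genes of lipid efflux and nuclear receptors, 6 lay higher and 8 lower (median -0.11). The lysosomal cholesterol carrier gene Npc2 was measured at 517 and 408 CPM in WT and at 320 to 357 CPM in cKO, and Soat1, which esterifies cholesterol, overlapped (101 to 277 CPM). Apoe ranged from 284 to 958 CPM, and Nr1h3, which encodes the nuclear receptor LXR alpha, had no count.

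Among 15 tested genes of signals that attract phagocytes or mark cells for uptake, 12 lay higher and 3 lower (median 0.54). The nucleotide receptor gene P2ry2 had no count in WT and lay at 16.5, 11.2 and 2.32 CPM in cKO (edgeR adjusted p = 0.968). Cx3cl1, which encodes fractalkine, had no count in WT and 1, 377 and 91 counts in cKO. Of 10 tested genes of TAM feedback and C1q regulation, 7 lay higher and 3 lower (median 0.40). Adam17, whose product sheds several surface receptors, was measured at 3.81 and 11.97 CPM in WT and at 24.7, 129 and 44.4 CPM in cKO. The interferon receptor gene Ifnar1 was measured at 22.4 and 17.98 CPM in WT and at 53.8, 68.7 and 63.6 CPM in cKO. Neither passed over all genes (edgeR adjusted p = 0.968 for each). The gene for the myeloid factor PU.1 (Spi1, 309 to 560 CPM) overlapped between the groups, as did Socs3 (20.5 to 90.6 CPM), and Maf had counts in cKO replicate 1 alone, at 0.876 CPM.

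**Figure D5:**
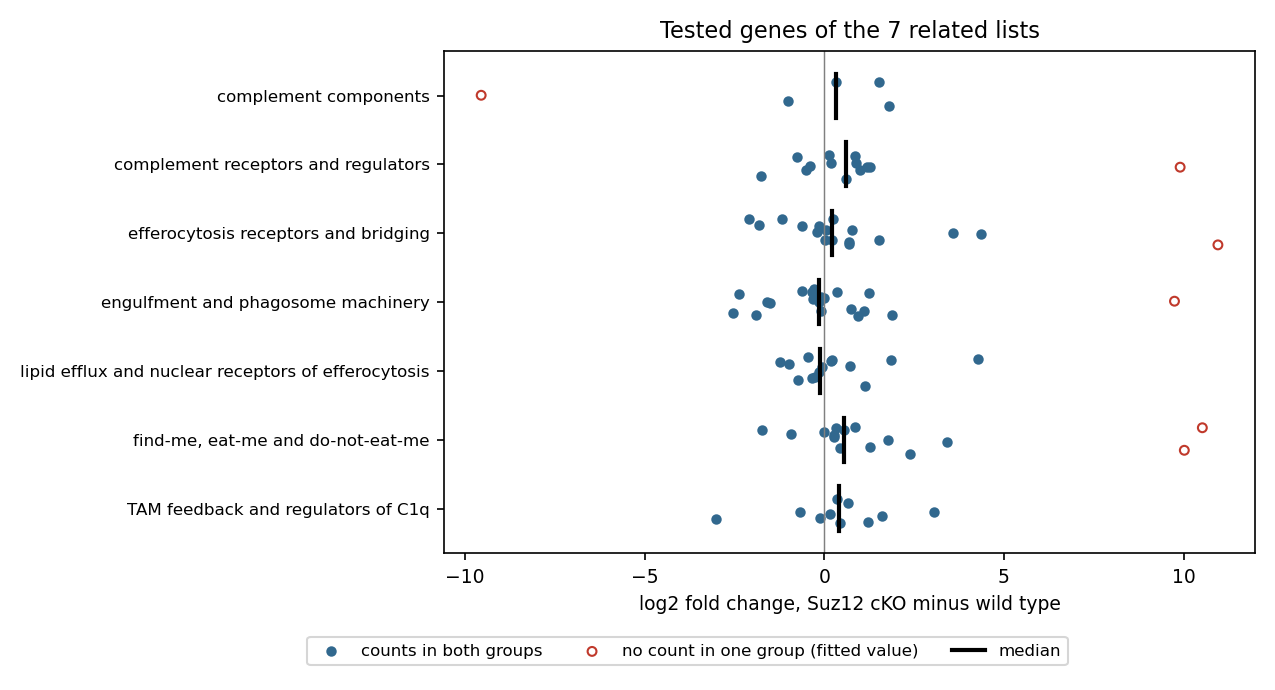
Fitted log2 fold change, cKO minus WT, of each tested gene in 7 related lists, with a black bar at the list median; open red symbols are genes without a count in 1 group, whose fitted value is no measured fold. The medians run from -0.15 to 0.59, against 0.06 over all tested genes.

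Markers of other skin cells also differed between libraries. Keratinocyte markers, all 14 with counts, summed to 441 and 961 CPM in WT and 994 to 1265 CPM in cKO, without overlap and in the direction of Mfge8. These sums overlapped when Krtdap, Perp, Dmkn or Lgals7 was left out. T cell markers summed to 709 and 496 CPM in WT and 787, 275 and 274 CPM in cKO. Dendritic cell markers summed to 1962 and 895 CPM in WT and 578 to 934 CPM in cKO. Endothelial markers reached 15.7 CPM and mast cell markers 5.81 CPM at most, and melanocyte markers summed to 33.1 to 429 CPM. Their part in the differences of Mfge8, Timd4 and the other members was not tested.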

How the data were processed

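Messenger RNA of 5 libraries was analysed, 2 WT and 3 cKO by their titles. The authors deposited raw counts per gene with exon lengths, which per the submitters' processing notes involved featureCounts and mm10. Not given in the sources used here are the aligner, tool versions, strand setting and treatment of multi-mapped reads. The 5 files per sample held the same counts as the series table.

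NCBI identifiers were given symbols from RefSeq (25275) or GENCODE vM21 (18), 25293 of 27179 in all. Genes were kept by filterByExpr (minimum count 10), which left 9988, and scaled by TMM. Groups were compared with edgeR 4.0.16 (R 4.3.3) by its robust quasi-likelihood test, with Benjamini-Hochberg adjustment at 0.05. Standard errors are the log2 fold change divided by the square root of F. The fit was run on simulated counts with known changes, and recovery was required only at dispersions far below those of these libraries. This does not show what the fit recovers at their own dispersions. Upstream windows of 250 bases came from RefSeq (GRCm38.p6). Versions of the other tools were limma 3.58.1, DESeq2 1.42.0, Python 3.11.15 and matplotlib 3.10.9.

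The members and lists were chosen with earlier results of these data known. Named were the 10 members, 17 fixed genes, in each of 7 lists up to 3 genes that passed or else the 2 with the smallest p, the 5 genes nearest to the C1q mean and the 3 nearest to Axl. None was nearest to Mertk, which had no count. One of the fixed genes is not reported here. Other genes were chosen after their values were seen. A root mean square difference was taken to have moved when it changed by over 1.5 times, a limit set after seeing the data. Alternatives were other scalings, filters, tools and terms, and each library left out in turn.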

Additional observations from a re-analysis of the deposited data

How the results depend on the processing

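The log2 fold changes of C1qb, C1qc, Axl, Pros1, Timd4 and Mfge8 kept their direction under 14 alternatives each, and no member was called under any of them (0 of 8, or of those still tested). For C1qb, C1qc and Mfge8 the groups did not overlap, so their direction with 1 library left out was largely fixed in advance. The other scalings, filters and tools used the same counts, so a kept direction is no independent support. C1qa turned to 0.07 without WT replicate 1 and to 0.28 without cKO replicate 1, and Gas6 to 8.44, a fitted value, without WT replicate 1. Gas6 was not tested without cKO replicate 3, where it did not pass the filter. Leaving out each library moved the values of C1qa from -0.73 to 0.28, of C1qb from -1.38 to -0.65, of C1qc from -1.73 to -0.74, of Mfge8 from 0.47 to 0.80, of Pros1 from 0.03 to 1.33, of Axl from 0.98 to 10.81 and of Gas6 from -2.17 to 8.44. The count of genes called over the whole table was 0 with edgeR, 191 with DESeq2 and 1 with a replicate block; the causes were not tested. With the replicate block C1qb had a log2 fold change of -0.97, C1qc one of -2.45 and Mfge8 one of 0.78. The numbers 1 and 2 occur in both groups, and the deviations of same-numbered libraries correlated at -0.023 and -0.0011 across genes. The deviations of the 2 WT libraries from their mean mirror each other. These values therefore cannot decide whether same-numbered libraries were paired. The root mean square difference between C1qb and C1qc ranged from 0.20 to 1.25 when 1 library was left out, that between C1qa and C1qc from 0.53 to 1.16, and that between C1qa and C1qb from 0.42 to 0.55. The lowest value of the first and second pair came without cKO replicate 1. The number of members whose groups do not overlap was 3 of 8 and ranged from 4 to 6 with 1 library left out, an alternative chosen after seeing the data, against 31.6% to 42.5% of tested genes. Leaving out a library can only keep or raise such a number, so the rise tests nothing. With 2 and 3 libraries, and Axl, Gas6 and Timd4 each under 10 CPM in some library, differences of these genes are limited by the spread between libraries and by low counts.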
